A study of Mus musculus with 6 samples.

Results

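The genes described here are those of the MHC class II presentation pathway on 1-colour Agilent mouse arrays: the chains H2-Aa, H2-Ab1 and H2-Eb1, the invariant chain Cd74, the peptide exchange chains H2-DMa and H2-DMb1, and the regulator Ciita. Probes were chosen by the RefSeq accession in the array files. All 7 genes had a probe, with 8 probes among them, out of 55681 probes and 37153 genes and unnamed features on the array. Muscle-derived stem cells (MDSC) are the cells of mouse hindlimb muscle that attach last in a preplate series. They came from male mice 5 weeks old, either wild type (WT) or labelled null for Mstn, the myostatin gene, with 2 isolations per genotype, both at passage 1 and grown in serum-rich medium without treatment. W4, a male line of mouse embryonic stem cells (ESC) that is well established, was sampled at passage 12 and at passage 15. ESC arrays are thus repeat passages of a single line, and the labels do not say how many mice went into an isolation. Neither the Mstn allele nor the strain of the mice is given in the sources used here. The ESC were grown on mouse embryonic fibroblast feeders and plated briefly before extraction to remove them, per the growth protocol.

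MHC class II molecules are dimers of an alpha and a beta chain that carry peptides from endosomes to the cell surface for CD4+ T cells. Dendritic cells and B cells express them constantly, and macrophages do so on activation. Interferon gamma can induce them in other cells, among them fibroblasts and cultured myoblasts. The invariant chain guides new dimers to endosomes, the H2-DM dimer exchanges the remnant of that chain for peptide, and Ciita, a coactivator that does not bind DNA itself, switches the whole set on from proteins bound to the S, X and Y boxes of the promoters.

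Each level is the log2 of a signal over its own array's 75th percentile, so 0 is the signal of a fairly bright probe, and a probe's level is compared only with itself on other arrays. "Well above background" is the scanner software's own flag. Between 53.3% and 64.6% of the 59305 spots per array carried it, no spot was saturated, and the number of arrays limits the precision. The WT arrays lay on slide 1 and the other 4 on slide 2, so that WT and slide cannot be told apart. The Mstn probe stood at -3.06 and -2.47 on the arrays labelled Mstn-null, at -4.90 and -6.71 on those from WT cells and at -7.23 and -6.85 on the ESC arrays, and was well above background on the Mstn-null arrays alone. It showed no loss on the arrays labelled Mstn-null and read higher there than in WT. The log2 difference was 3.04 and did not pass (limma adjusted p = 0.135). The probe's place relative to any deleted part is not given, so these values do not settle the labels. The groups are called by their labels. Fibroblast markers averaged 5.10 to 6.31 and the 6 muscle lineage markers -1.23 to 2.53 on the MDSC arrays, and the 6 ESC markers 6.42 and 6.58 on the ESC arrays, against -5.15 to -4.82 on the MDSC arrays.

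The class II genes formed no common pattern. H2-Aa was well above background on no array, whereas its partner H2-Ab1 was on all 6. H2-DMa was higher in MDSC than in ESC (limma, log2 difference 1.38 ± 0.34, SE, n = 4 and 2, adjusted p = 0.0203) and Cd74 was lower (-1.43 ± 0.36, adjusted p = 0.0228). Ciita was well above background on both Mstn-null arrays and on no other. No member passed the test between Mstn-null and WT MDSC. Arrays of whole cultures cannot tell fewer cells of a type from less RNA per cell, here and in every result that follows.

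**Figure D1:**
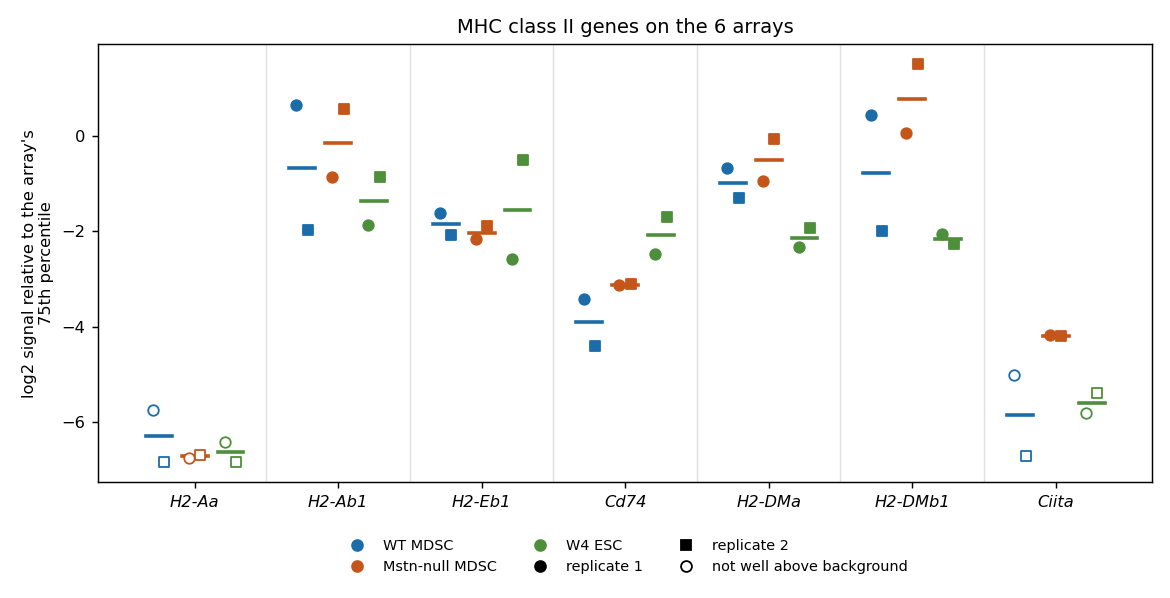
Levels of the 7 class II genes on each array (log2 signal relative to the array's 75th percentile, vertical axis), by group, with replicate 1 as circles, replicate 2 as squares, group means as lines, and open symbols where the probe was not well above background. H2-Aa is open on all 6 arrays and Ciita on all but the Mstn-null arrays, and H2-Ab1 and H2-DMb1 spread most between the WT isolations.

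The promoters of H2-Aa, H2-Eb1 and H2-DMb1 are shown because these members hold matches to letters of the X and Y boxes but differed in their signals. RefSeq entries of build GRCm38.p6 matched 4 of the 7 members, H2-DMa with 2 starts. The 250 bases before the annotated start follow for H2-Aa (chr17:34287824-34288073, minus strand), H2-Eb1 (chr17:34305617-34305866, plus strand) and H2-DMb1 (chr17:34152941-34153190, plus strand), 5′ to 3′. Capitals mark matches on either strand to letters from the core of the S box (GGACC), the X1 box (CTNGNAAC), the X2 box as a full cAMP response element (TGACGTCA) and the Y box (GATTGG).
H2-Aa: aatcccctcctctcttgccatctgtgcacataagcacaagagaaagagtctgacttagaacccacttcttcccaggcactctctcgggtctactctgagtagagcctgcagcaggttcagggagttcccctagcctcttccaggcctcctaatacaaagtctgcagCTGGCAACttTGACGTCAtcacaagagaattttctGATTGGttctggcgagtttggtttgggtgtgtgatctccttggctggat
H2-Eb1: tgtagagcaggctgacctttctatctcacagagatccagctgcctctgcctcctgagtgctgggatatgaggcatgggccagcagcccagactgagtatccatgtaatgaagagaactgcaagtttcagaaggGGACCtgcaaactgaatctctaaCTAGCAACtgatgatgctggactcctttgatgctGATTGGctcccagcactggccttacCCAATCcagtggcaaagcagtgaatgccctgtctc
H2-DMb1: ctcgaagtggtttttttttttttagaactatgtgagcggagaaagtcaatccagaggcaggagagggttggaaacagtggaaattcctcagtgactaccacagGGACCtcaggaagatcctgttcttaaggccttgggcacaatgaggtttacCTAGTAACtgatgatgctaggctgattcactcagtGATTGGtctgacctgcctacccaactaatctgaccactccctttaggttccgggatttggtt

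In each of these 3 promoters an X1 match was followed by a Y match on the same strand. With -1 as the last base before the start, the X1 match began at -84 in H2-Aa, -94 in H2-Eb1 and -97 in H2-DMb1, and the Y match at -49, -60 and -62. H2-Eb1 also held a Y match on the minus strand at -35, and the S match lay at -117 in H2-Eb1 and -147 in H2-DMb1. Over all 32851 RefSeq promoter entries, the same window held the S letters in 39.8%, the X1 letters in 10.9%, the cAMP response element in 1.55% and the Y letters in 14.6%. An X1 match followed by a Y match within 40 bases stood in 39 entries (0.119%), of at least 36 named genes, most of them not class II genes. Among them, besides these 3, were H2-Ob, another class II chain, and Rfx5, a subunit of the factor that binds the X box. The letters were chosen with these promoters in view, and a match is not a binding site. Of the H2-DMa entries, 1 held the S and Y letters, overlapping each other by a base at -194, and the other held none of the motifs searched.

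H2-Aa encodes the alpha chain of the I-A molecule. Its probe (A_52_P343306) read -5.74 and -6.83 on the WT arrays, -6.75 and -6.68 on the Mstn-null arrays and -6.41 and -6.84 on the ESC arrays. The lowest signal flagged well above background on any of these arrays lay between -5.29 and -4.66, so H2-Aa was below it on all 6. It was therefore not tested, and no fold is given. Its promoter, printed above, holds matches to the X1, X2 and Y letters.

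H2-Ab1 encodes the beta chain that pairs with H2-Aa. Its brighter probe (A_55_P1962747) read 0.64 and -1.97 on WT isolations 1 and 2, -0.85 and 0.55 on Mstn-null isolations 1 and 2, and -1.87 and -0.87 on ESC passages 12 and 15. The groups overlap in WT against ESC, and the widest gap was inside a group: the WT isolations lay 6.11-fold apart, against a median of 1.20-fold over all genes tested. The second probe (A_55_P2146560) read 0.38 and -2.07 for WT, -0.99 and 0.50 for Mstn-null and -2.00 and -1.06 for ESC, with WT isolation 1 and Mstn-null isolation 2 again the highest, in the other order. Mstn-null exceeded WT by 0.51 ± 1.00 on the log2 scale (SE, limma adjusted p = 0.854), with a 95% interval from -2.05 to 3.08 that holds both a large rise and a large fall. That difference turned to -0.79 without WT isolation 2 and to -0.19 without Mstn-null isolation 2. Against ESC, the WT difference was 0.70 ± 1.00 (adjusted p = 0.576), or -0.60 without WT isolation 1, and the Mstn-null difference 1.22 ± 1.00 (adjusted p = 0.344). Both Mstn-null arrays lay above both ESC arrays, but the nearest, isolation 1 at -0.85 and passage 15 at -0.87, all but touched.

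H2-Eb1 encodes the beta chain of the I-E molecule. On the WT arrays it read -1.62 and -2.08, on the Mstn-null arrays -2.16 and -1.90, and on the ESC arrays -2.58 at passage 12 and -0.52 at passage 15. The 4 MDSC arrays lay close together and between the ESC arrays, which were 4.18-fold apart, against a median of 1.22-fold over all genes tested between those passages. MDSC differed from ESC by -0.39 ± 0.60 (limma adjusted p = 0.594). Without passage 12 this was -1.42 and passed (adjusted p = 0.0213), and without passage 15 it turned to 0.64 (adjusted p = 0.125). Mstn-null differed from WT by -0.17 ± 0.69 (adjusted p = 0.932), from -1.94 to 1.59 at 95%.

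Cd74, the invariant chain, was well above background on every array. It read -3.41 and -4.40 on the WT arrays, -3.12 and -3.11 on the Mstn-null arrays and -2.47 and -1.69 on ESC passages 12 and 15. All 3 groups were separate in these values, with WT lowest, Mstn-null next and ESC highest. The fall against ESC passed in WT (-1.83 ± 0.42, limma adjusted p = 0.0192, a ratio of 0.282) and not in Mstn-null MDSC (-1.03 ± 0.42, adjusted p = 0.0923). Whether these falls differ is the Mstn-null against WT test, which gave 0.79 ± 0.42 (adjusted p = 0.485). The WT call ended without WT isolation 2 (-1.33, adjusted p = 0.0568) or ESC passage 15 (-1.44, adjusted p = 0.0823). The call over both genotypes ended without either Mstn-null array (adjusted p = 0.0586 and 0.0597) or passage 15 (-1.04, adjusted p = 0.123). On ESC passage 15, where Cd74, H2-Eb1 and H2-Ab1 stood 0.77, 2.06 and 0.99 above passage 12, fibroblast markers averaged -0.76 against 2.67 at passage 12. Fibroblast markers thus lay lower on the ESC array where these 3 genes lay higher. The part of feeder cells in the ESC values was not tested.

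H2-DMa and H2-DMb1 encode the alpha and beta chains of the peptide exchange dimer. H2-DMa read -0.68 and -1.31 on the WT arrays, -0.95 and -0.07 on the Mstn-null arrays and -2.33 and -1.93 on the ESC arrays, so that every MDSC array lay above both ESC arrays. It was 3.08-fold higher in Mstn-null MDSC than in ESC (1.62 ± 0.39, limma adjusted p = 0.0212) and 2.20-fold in WT (1.14 ± 0.39, adjusted p = 0.0598), where it did not pass. With only the WT and ESC arrays in the fit, the WT difference passed (adjusted p = 0.0471). The call over both genotypes ended without ESC passage 12 (1.18, adjusted p = 0.108) or 15 (1.58, adjusted p = 0.0617), and the Mstn-null call also without Mstn-null isolation 2 (1.18, adjusted p = 0.0867), passage 12 (1.42, adjusted p = 0.0919) or passage 15 (1.82, adjusted p = 0.0572).

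H2-DMb1 read 0.44 and -2.00 on WT isolations 1 and 2, 0.05 and 1.50 on Mstn-null isolations 1 and 2, and -2.06 and -2.26 on the ESC arrays. WT isolation 2 stood barely above the ESC arrays and the other MDSC arrays well above them. The gene was 7.69-fold higher in Mstn-null MDSC than in ESC (2.94 ± 0.91, adjusted p = 0.0441), 2.61-fold in WT (1.39 ± 0.91, adjusted p = 0.246) and differed by 2.16 ± 0.79 over both genotypes (limma adjusted p = 0.0647). The Mstn-null call ended without Mstn-null isolation 1 (3.67, adjusted p = 0.0608) or 2 (2.22, adjusted p = 0.179), without ESC passage 12 (3.04, adjusted p = 0.128) or 15 (2.84, adjusted p = 0.150), with dim probes left in (adjusted p = 0.0627) and with the isolation number as a block (adjusted p = 0.0722). Without WT isolation 2 the WT difference was 2.61 and passed (adjusted p = 0.0424), as did the difference over both genotypes (2.77, adjusted p = 0.0149). It also passed with arrays centred on their median (2.33, adjusted p = 0.0389). H2-DMb2, a close copy of H2-DMb1, was well above background on no array, and whether the H2-DMb1 probe also reads it was not tested.

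Ciita read -4.18 and -4.20 on the Mstn-null arrays, -5.01 and -6.70 on the WT pair and -5.81 and -5.38 on the ESC arrays. The Mstn-null arrays lay above the others, near the lower end of what the scanner software called well above background. By the signals those arrays could resolve, Ciita was at least 1.56-fold higher in Mstn-null than in WT MDSC (limma adjusted p = 0.283) and at least 1.87-fold higher than in ESC (adjusted p = 0.0902), and neither passed. Within slide 2, where the Mstn-null and ESC arrays were fitted on their own, the second difference passed (adjusted p = 0.0102). It also passed in the shared fit without WT isolation 1 (adjusted p = 0.0116) or 2 (adjusted p = 0.0113). It passed under normexp background correction as well (adjusted p = 0.0224). Without WT isolation 2 the fit also called MDSC higher than ESC (adjusted p = 0.0205), and without WT isolation 1 it called WT lower than ESC (adjusted p = 0.0439). With all arrays and in each of these alternatives, Ciita entered the fit only because both Mstn-null arrays were flagged, the group where it was high. None of these calls is free of that choice. With dim probes left in, its Mstn-null difference from ESC did not pass (limma adjusted p = 0.123). With every array required well above background, Ciita was not tested. Neither WT array nor either ESC array read Ciita well above background, so no size is given for these differences.

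**Figure D2:**
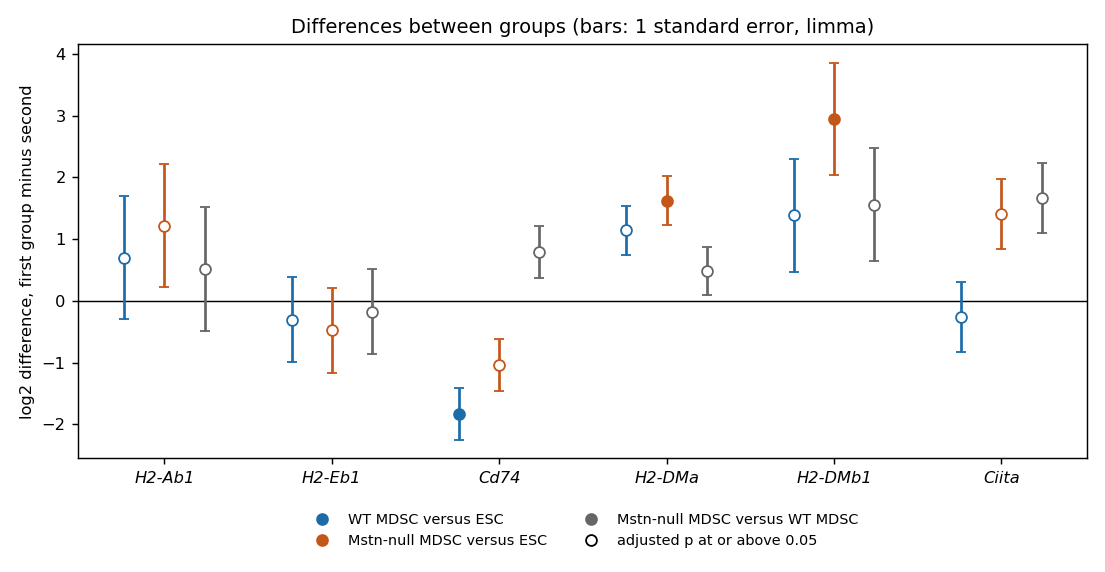
Log2 differences of the 6 tested class II genes (vertical axis, first group minus second, bars 1 standard error from limma) in WT MDSC against ESC, Mstn-null MDSC against ESC and Mstn-null against WT MDSC, filled where the adjusted p was under 0.05. Filled points are Cd74 in WT, and H2-DMa and H2-DMb1 in Mstn-null MDSC; no grey point is filled.

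Of the 6 members tested, 1 was higher and 1 lower in MDSC than in ESC, while 59.6% of the 25057 genes and unnamed features tested passed in that comparison, 28.3% higher and 31.4% lower. The members' median difference was 0.77, against -0.03 over all tested. With arrays centred on their median, the balance over all genes turned from 7086 higher and 7860 lower to 7250 higher and 6017 lower. In Mstn-null MDSC against ESC, 2 members were higher and 0 lower, with 54.2% of all genes passing, 23.3% higher and 30.8% lower. Centring arrays on their median shifted the median of all genes there from -0.12 to 0.13, and turned the balance from 5849 higher and 7725 lower to 6338 higher and 5263 lower. In WT MDSC against ESC, 0 were higher and 1 lower, with 53.1% of all genes passing, 27.1% higher and 25.9% lower. These comparisons share the ESC arrays. Between the genotypes, 0 of 6 members and 0% of all genes passed limma's test. At an unadjusted p under 0.05, 1 member, Ciita, and 3671 of all genes tested did, and with quantile normalization 25 genes passed over the whole array, none of them a member. With all arrays and both directions together, the share of class II genes called against ESC was below that of all genes, on 1 or 2 of 6 members. By direction this did not hold in Mstn-null MDSC, where 2 of 6 were higher, against 23.3% of all genes. The counts of members also moved when single arrays were left out, as given in the last section.

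Of the other class II chain genes, 4 had a probe and 2 were tested. H2-DMb2 and H2-Eb2 were well above background on no array. H2-Oa, the alpha chain of the H2-O dimer that restrains H2-DM, was well above background on the ESC arrays alone (-4.85 and -4.58), through which it entered the fit. It was at least 1.12-fold higher there, with a fitted difference of -1.69 in MDSC (limma adjusted p = 0.0206). That call ended without either ESC array or WT isolation 2, and with quantile normalization. H2-Ob, its beta chain, was higher in MDSC by 0.64 ± 0.20 by its brighter probe (adjusted p = 0.0405), a call that was kept without WT isolation 1 and ended without any other array. Its other probe was well above background on no array.

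Of the genes for proteins that bind class II promoters with Ciita, or bind between the class II genes, 7 were tested, of which 5 fell and 1 rose in MDSC (median -1.16). Over all genes tested 31.4% fell and 28.3% rose, with a median of -0.03, which is also the background of the lists that follow. Rfxank, a subunit of the X box factor, fell by 1.43 (limma adjusted p = 0.00341), Nfya and Nfyb, subunits of the Y box factor, by 1.16 and 1.19, and Ctcf, an insulator protein that also binds between the class II genes, by 1.43. Creb1, which binds the X2 box, rose by 0.54 (adjusted p = 0.0412) and lost that call whichever array was left out. Rfxap did not pass (0.43, adjusted p = 0.132), and Rfx5 was not tested, as it was well above background on 1 ESC array alone.

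Of 8 tested genes of the interferon gamma pathway, 7 rose and 1 fell in MDSC (median 2.08). The receptor genes Ifngr1 and Ifngr2 rose by 2.74 ± 0.14 and 2.77 ± 0.21 (limma adjusted p = 2.76e-04 and 6.83e-04), and the kinase genes Jak1 and Jak2 by 2.26 and 1.90. Irf1, an interferon-induced factor that acts on a Ciita promoter, was lower by 0.73 (adjusted p = 0.0283), a call that ended without either Mstn-null array, without either ESC array and with median centring. Ifng itself was well above background on no array, with levels from -7.40 to -6.32.

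Of 9 tested genes that prepare antigen or turn class II molecules over, 7 rose and 0 fell in MDSC (median 2.00). Among the endosomal proteases, Ctsb rose by 2.85, Ctsl by 1.94 and the legumain gene Lgmn by 2.00. Marchf8, a ubiquitin ligase that removes class II molecules and other receptors from the surface, rose by 1.74. Ifi30, the lysosomal thiol reductase, did not pass (0.18, adjusted p = 0.584), nor did Cd83 (2.45, limma adjusted p = 0.0837), which protects class II molecules from that removal. Of 7 costimulation genes tested, 2 rose (Cd86 and Cd200) and 2 fell. Without either ESC array 0 rose, and 1 rose without either Mstn-null array or without WT isolation 1. Cd86 read -3.62 and -0.96 on the Mstn-null arrays, through which alone it entered the fit, and was well above background on no other array. It was at least 5.79-fold higher there than in WT (limma adjusted p = 0.219), which did not pass. Icosl and Icam1, also costimulation genes, fell against ESC by 2.76 and 2.27.

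**Figure D3:**
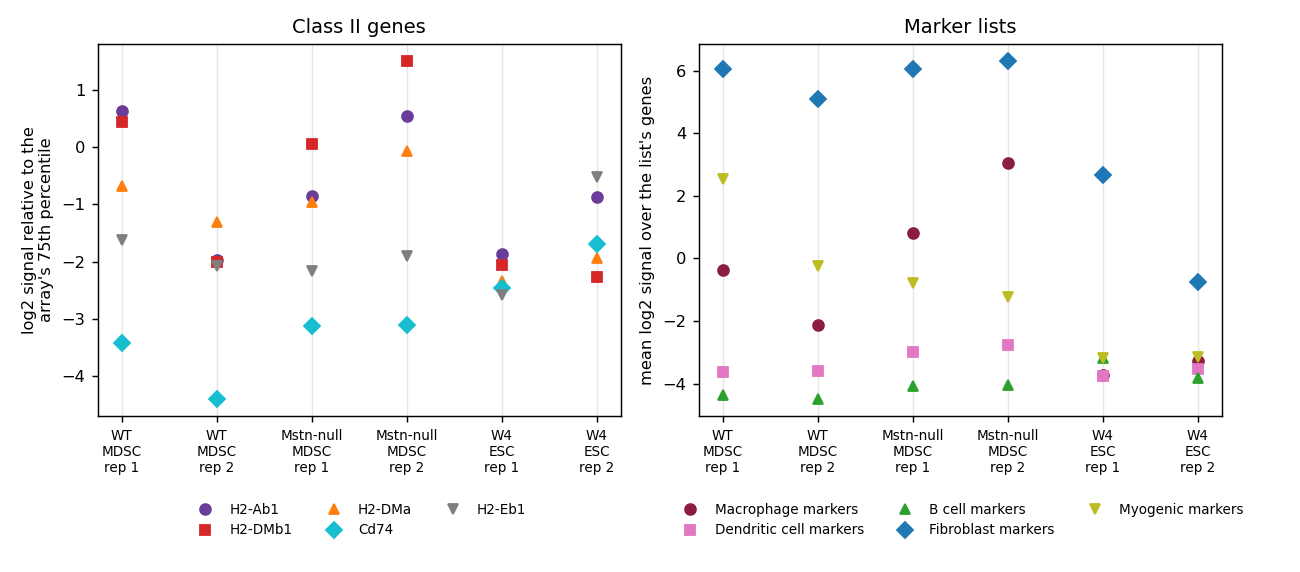
Left, log2 levels of 5 class II genes (relative to the array's 75th percentile) on each array; right, the mean log2 level of the genes of 5 marker lists on the same arrays. The macrophage markers run from -2.13 on WT isolation 2 to 3.06 on Mstn-null isolation 2, and H2-DMb1 is lowest and highest among the MDSC on those same arrays; on WT isolation 2 its point lies on that of H2-Ab1.

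Among markers of cells that carry class II molecules, those of macrophages moved with some members on the MDSC arrays. Cd74 was instead highest on the ESC arrays, where these markers averaged lowest. Of 16 macrophage markers, 15 had a probe, and 11 of these were higher in MDSC than in ESC and 0 lower (median 3.14). That count was 7 without ESC passage 15. Against ESC, 14 rose in Mstn-null MDSC, or 9 without Mstn-null isolation 2 or either ESC array, and 5 rose in WT, or 2 without WT isolation 1 and 3 without ESC passage 12. The shares of all genes tested that rose against ESC were 23.3% in Mstn-null and 27.1% in WT MDSC. Spi1, C1qa and Fcgr1 entered the fit only through the Mstn-null arrays, the group where they were high. The summed level of the macrophage markers is in units of the 75th percentile. It was 103 and 331 on the Mstn-null arrays, 70.2 and 50.2 on the WT pair, and 18.2 and 12.1 on the ESC arrays. On the WT and ESC arrays most of it came from an Itgam probe that was about as bright in both genotypes, while the other Itgam probes were dim. Without that probe the sums were 64.5 and 297 on the Mstn-null arrays, 24.9 and 11.6 on the WT pair and 2.74 and 3.79 on ESC passages 12 and 15. Spi1, the macrophage master factor, was well above background on the Mstn-null arrays (-3.04 and -1.56) and on no other. No marker passed between the genotypes, where the median difference was 3.57.

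Among the MDSC arrays, the mean of the macrophage markers was highest on Mstn-null isolation 2 and lowest on WT isolation 2, and so were H2-DMb1 and H2-DMa. Cd74 was lowest on WT isolation 2 and level on the Mstn-null arrays (-3.12 and -3.11). H2-Ab1 was also lowest on WT isolation 2. It was highest on WT isolation 1 by its brighter probe (0.64 against 0.55 on Mstn-null isolation 2) and on Mstn-null isolation 2 by its other probe (0.50 against 0.38). On WT isolation 1 the macrophage markers averaged -0.38 and the muscle lineage markers averaged 2.53, against -1.23 to -0.24 on the other MDSC arrays. The complement genes C1qa, C1qb and C1qc, products of macrophages, read -0.13, 0.36 and 0.70 on WT isolation 1, and -5.46, -2.69 and -4.38 on WT isolation 2, where C1qa was not well above background. From WT isolation 1 to 2, Cd74 was 0.98 lower and the macrophage markers 1.75 lower, while on the Mstn-null arrays Cd74 differed by 0.0043 and the markers by 2.26. H2-Eb1 was highest on WT isolation 1 and lowest on Mstn-null isolation 1. The part of macrophages in the levels of the class II genes was not tested.

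Of 10 dendritic cell markers, 7 were tested, 1 rose and 1 fell in MDSC. Itgax, shared with macrophages, was well above background on the Mstn-null arrays alone (-1.32 and 1.12), through which it entered the fit. Averaged over both genotypes, it was called higher in MDSC than in ESC (limma adjusted p = 0.0121), a call that ended without either ESC array. The WT signals in that average were not well above background, so no fold is given. Xcr1 and Cd209a were well above background on no array, while Irf8, Batf3 and the brighter Zbtb46 probe were on all 6. The summed level of the 10 was 105 and 91.5 on the Mstn-null arrays, 71.7 and 98.7 on the WT pair and 207 and 105 on the ESC arrays, nearly all of it from a Siglech probe, whose other probe was not well above background anywhere. Of 8 B cell markers, 5 were tested, 0 rose and 1 fell (2 without ESC passage 15), and the summed level was 2.29 and 4.87 on the Mstn-null arrays, 0.794 and 0.672 on the WT pair and 4.54 and 1.58 on the ESC arrays. Ms4a1 and Pax5, which define B cells, were well above background on no array, while Cd22, Blnk and the brighter Cr2 probe were on all 6. Blnk read 0.85 and 2.11 on the Mstn-null arrays, -1.61 and -2.35 on the WT pair and 1.64 and -0.17 on the ESC arrays.

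Apart from Ciita and Cd74, the members lie together in the class II region. In RefSeq order that stretch runs through H2-Oa, Brd2, H2-DMa, H2-DMb2, H2-DMb1, Psmb9, Tap1, Psmb8, Tap2, H2-Ob, H2-Ab1, H2-Aa, H2-Eb1, H2-Eb2 and the pseudogene H2-Ea, with 1 noncoding gene between H2-Ob and H2-Ab1. Of these 16 entries, 14 had a probe and 11 were tested. The 7 tested neighbours of the members held 3 that were higher and 1 that was lower in MDSC. Over all genes tested, 28.3% were higher and 31.4% lower. The calls of H2-Oa and H2-Ob among these neighbours ended without single arrays, as given above. Tap2, a subunit of the class I peptide transporter, was higher by 2.23 ± 0.34 (limma adjusted p = 0.00441) and its partner Tap1 by 0.82 ± 0.24 (adjusted p = 0.0352). The immunoproteasome genes Psmb9 and Psmb8, which lie between H2-DMb1 and Tap2, stood at -0.88 (adjusted p = 0.219) and 1.01 (adjusted p = 0.211). On the MDSC arrays Psmb8 read 0.26 and -1.39 in WT and 0.50 and 1.96 in Mstn-null, the same order of arrays within each genotype as H2-DMb1. Psmb9, Tap1 and Tap2 had that order as well.

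**Figure D4:**
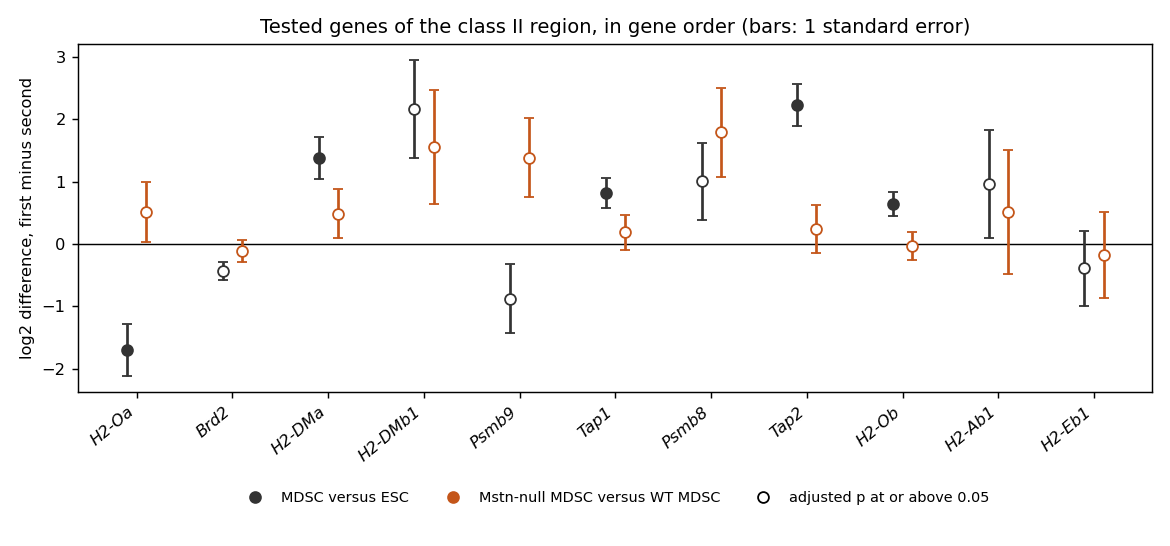
Log2 differences (vertical axis, bars 1 standard error from limma) of the 11 tested genes from H2-Oa to H2-Eb1 in gene order (spacing not to scale), in MDSC against ESC and in Mstn-null against WT MDSC, filled where the adjusted p was under 0.05. H2-Oa is lower and H2-DMa, Tap1, Tap2 and H2-Ob higher in MDSC, with unfilled genes between them, and no genotype difference is filled.

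The genes whose centred levels over the 6 arrays were nearest to the mean of H2-Ab1, H2-Eb1 and Cd74 were Ehhadh, a peroxisomal enzyme (root mean square difference 0.18 on the log2 scale, Pearson's r 0.966), Fbxl16 (0.23, r 0.929), the adhesion molecule gene Nectin2 (0.24, r 0.946), the receptor gene Notch4 (0.26, r 0.911) and Cdc42ep5 (0.26, r 0.926). With 6 arrays and 25057 genes, such closeness only describes these arrays. Ehhadh read -2.90 and -3.88 on the WT arrays, -3.09 and -2.96 on the Mstn-null arrays and -3.68 and -2.43 on the ESC arrays. The gene was thus low on WT isolation 2 and ESC passage 12 and high on passage 15, as the mean of the 3 members was.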

How the data were processed

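Cy3-labelled RNA of cultured cells was hybridised to 6 Agilent arrays, 2 per group. The deposited files hold each spot's intensity; gProcessedSignal is already background-corrected, per the file headers, which name Feature Extraction 10.7.1.1, while the submitters' processing notes name 9.1. Control spots and outlier-flagged spots were dropped, log2 intensities were set against each array's 75th percentile (550 to 647 intensity units), spots of a probe were averaged, and the brightest probe stood for a gene. Features flagged above background on each array of 1 or more groups (25057 of 37153) were fitted with limma 3.58.1 in R 4.3.3 over 3 group means, with 3 residual degrees of freedom and Benjamini-Hochberg adjustment over all of them, two-sided, threshold 0.05. The fit was tested on simulated data. A fold given as "at least" sets the bright group's mean against, per array of the dim group, the higher of the lowest signal well above background and the probe's own. An adjusted p beside such a fold is that of the fitted difference, not of this bound. Probes were named by RefSeq accession. An exact permutation test of 2 arrays against 2 cannot go below p = 0.333, so none is given. P-values measure the spread between isolations or passages. The members and lists were chosen with earlier results of these data known. Named genes are the members, the lists' genes, the members' neighbours in the RefSeq gene order and the 5 genes nearest in profile. The values of 1 gene of a list are not reported here. Motifs were searched on both strands. T cell and endothelial markers had 2 and 1 genes higher and 2 and 2 lower in MDSC than in ESC. Alternatives were other normalizations and filters, the isolation or replicate number as a block, and leaving out each array.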

Additional observations from a re-analysis of the deposited data

How the results depend on the processing

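With 2 arrays per group, each array left out moved the count of members called: from 0 to 2 in WT MDSC against ESC (1 with all arrays), from 0 to 3 in Mstn-null MDSC against ESC (2) and from 0 to 4 in MDSC against ESC (2), while it stayed at 0 to 0 between the genotypes. In WT MDSC against ESC, 2 members passed with the filter requiring every array well above background or with only the groups compared in the fit. In Mstn-null MDSC against ESC, 1 passed without a filter on dim probes. The differences whose direction turned are given as ranges over the arrays left out. Between the genotypes, H2-Ab1 ran from -0.79 (without WT replicate 2) through -0.19 (without Mstn-null replicate 2) to 1.82, and H2-Eb1 from -0.41 to 0.058 (without WT replicate 1), with 0.0052 under median centring. In WT against ESC, H2-Ab1 ran from -0.60 (without WT replicate 1) to 2.01 and Ciita from -1.10 to 0.58 (without WT replicate 2), the latter between signals not well above background. H2-Eb1 ran from -1.34 to 0.73 in WT, from -1.51 to 0.55 in Mstn-null and from -1.42 to 0.64 in all MDSC against ESC, lowest without passage 12 and highest without passage 15. None of these passed with all arrays, and the cause was not tested. Of the single-gene values under alternatives, 355 kept direction and side of the threshold, 17 newly passed, 16 no longer passed and 9 turned.

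The labels do not say that isolation numbers mark shared animals or days. Over 25057 genes, the difference of isolation 1 from 2 in Mstn-null correlated with that in WT at r = -0.40. With the replicate number as a block, 1 member passed in Mstn-null MDSC against ESC; the other comparisons kept 0, 1 and 2. With the pairing crossed, an alternative added after the data were seen, 3 members passed in WT MDSC against ESC, and 142 genes were higher and 35 lower between the genotypes over the whole array. Dim signals set the limit for Ciita, H2-Aa and H2-Oa.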
